A study of Arabidopsis thaliana with 27 samples.

Results

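The 26S proteasome of Arabidopsis thaliana was followed through 53 genes of its 20S core and 19S regulatory particle, chosen by locus from the 33602 genes counted in each library. They comprised 24 core genes (13 alpha and 11 beta), 15 genes of the regulatory base (11 RPT ATPase genes and 4 RPN genes), 13 genes of the regulatory lid and RPN10, which sits between base and lid. Together they encode 31 subunits, 22 of them from a pair of paralogues and 9 from 1 gene. Expression was high enough to test 52 of the 53. The exception was the lid gene RPN12B (AT5G42040), which had 0 to 8 counts per library, and the lowest gene tested was the alpha gene PAC2 (AT4G15165), with 2 to 19 counts.

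Developing seeds of 3 lines were compared at 7-8, 9-10 and 11-12 days after flowering. PDAT seeds express 2 castor bean genes on the fae1 background, the hydroxylase gene RcFAH12 and the acyltransferase gene RcPDAT1a, CL37 seeds express RcFAH12 only, and fae1 seeds express neither. All groups, the controls included, therefore share the fae1 mutation, which blocks the elongation of oleic acid to longer chains, and no wild type is among them. The hydroxylase turns oleic acid into ricinoleic acid, a hydroxy fatty acid, and the acyltransferase makes triacylglycerol with an acyl group taken from a phospholipid. Per the labels both castor genes are expressed in seeds; the promoter and the number of transformants behind each line are not given in the sources used here, and the castor transcripts are not analysed here. Each of the 9 groups had 3 biological replicates (A, B and C) of whole seeds from about 50 plants, so a smaller share of a cell type and less transcript per cell cannot be told apart.

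Libraries held 4126510 to 22403287 counts in genes, and the 20 most abundant genes took 9.02% to 54.3% of them. Of the markers of the labelled tissue, the cruciferin gene CRU3 had 2956 to 213652 CPM (TMM-scaled counts relative to library size). Of 3 silique wall genes, IND and FUL stayed at or below 0.206 and 0.99 CPM and SHP1 had 2.95 to 10.7 CPM, with a count in every library. Replicate A of fae1 at 7-8 days stood apart from its group, with a summed level of 5 embryo storage genes of 246658 CPM against 10493 and 24557 CPM in the other replicates. On the first principal component of log2 CPM over all tested genes it stood at -4.017, against 114.7 and 97.91 for B and C. Replicate A of fae1 at 9-10 days stood apart the other way, at 66.14 against 23.59 and 2.162. Several counts of called members are given without these A libraries too, while group means, medians and fold changes include them. Replicate B of PDAT at 11-12 days also stood apart, with 15.3% of its alignments not unique. At 11-12 days the storage genes summed to 237231, 243808 and 244680 CPM in PDAT seeds (lowest, median and highest), 187530, 258408 and 348925 CPM in CL37 seeds and 347961, 406671 and 515491 CPM in fae1 seeds. The 2 leaf photosynthesis genes summed to 1787 to 2143 CPM in PDAT, 1318 to 1835 CPM in CL37 and 2332 to 2615 CPM in fae1 seeds at that stage. The part of these differences in the results below was not tested.

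A further check touches the late libraries of CL37 and fae1. In the authors' deposited table, which has 1 pooled FPKM value per line and stage, the log2 ratio of CL37 over fae1 at 11-12 days had a median of 0.18 over the 52 members, against 0.49 from the means of the labelled libraries. Had replicate C of CL37 and replicate C of fae1 been exchanged, the libraries would have given 0.20, and for 51 of 52 members the ratio in the authors' deposited table was nearer to this than to the labelled one. RPT6B had a log2 ratio of 0.60 in the authors' deposited table, 1.57 in the labelled libraries and 0.66 with the exchange. In the count files replicate C of CL37, like A and B, lay above every fae1 library for 45 of the 52 members. On the second principal component over all tested genes, CL37 replicates A, B and C stood at -71.14, -31.47 and -50.76. Those of fae1 stood at 36.89, 40.55 and 32.97. Results follow the labels of the count files and are also given without these C libraries.

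The proteasome degrades proteins tagged with ubiquitin in the cytosol and nucleus, and proteins drawn back out of the endoplasmic reticulum. Its barrel-shaped core has outer rings of alpha subunits, which form the gate, and inner rings of beta subunits, of which PBA, PBB and PBE carry the caspase-like, trypsin-like and chymotrypsin-like active sites. The base unfolds the substrate with a ring of RPT ATPases, the lid removes the ubiquitin chain through RPN11, and RPN10 binds ubiquitin. In Arabidopsis many subunit genes exist as pairs, and the transcription factors NAC53 and NAC78 are known to raise subunit genes together through a promoter element with the core TGGGC when proteasome capacity is short.

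The promoters of the 4 members that rose most in CL37 seeds at 11-12 days, and of RPT6A, the neighbour and paralogue of RPT6B, show how unevenly that element is spread. Each is the 250 bases before the RefSeq gene start on TAIR10.1, written along the gene's own strand with TGGGC, or its reverse complement GCCCA, in capitals. The windows are chr5:6756383-6756632 (plus strand) for RPT6B, chr5:6751548-6751797 (plus) for RPT6A, chr5:23568802-23569051 (plus) for RPT3, chr1:1349830-1350079 (plus) for RPN2B and chr5:16250926-16251175 (minus) for PBB2.
RPT6B promoter: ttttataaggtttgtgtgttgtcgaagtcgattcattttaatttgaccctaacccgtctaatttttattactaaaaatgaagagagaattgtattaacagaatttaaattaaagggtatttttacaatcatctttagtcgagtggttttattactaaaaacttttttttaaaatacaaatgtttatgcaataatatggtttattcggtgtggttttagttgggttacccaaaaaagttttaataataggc
RPT6A promoter: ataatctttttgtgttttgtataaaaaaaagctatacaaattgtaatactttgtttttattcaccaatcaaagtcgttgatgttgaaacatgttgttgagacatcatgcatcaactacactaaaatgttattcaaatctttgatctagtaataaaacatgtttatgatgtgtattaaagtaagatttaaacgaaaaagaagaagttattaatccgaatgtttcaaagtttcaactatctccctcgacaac
RPT3 promoter: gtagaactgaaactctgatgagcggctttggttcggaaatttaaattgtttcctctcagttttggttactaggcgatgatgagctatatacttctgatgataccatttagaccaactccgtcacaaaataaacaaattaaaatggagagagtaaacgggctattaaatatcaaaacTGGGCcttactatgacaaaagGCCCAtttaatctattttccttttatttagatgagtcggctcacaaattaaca
RPN2B promoter: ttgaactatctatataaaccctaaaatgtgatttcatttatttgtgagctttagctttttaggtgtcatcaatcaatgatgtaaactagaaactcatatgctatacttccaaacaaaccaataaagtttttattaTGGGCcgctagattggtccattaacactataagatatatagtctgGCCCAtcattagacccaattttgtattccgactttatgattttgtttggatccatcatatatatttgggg
PBB2 promoter: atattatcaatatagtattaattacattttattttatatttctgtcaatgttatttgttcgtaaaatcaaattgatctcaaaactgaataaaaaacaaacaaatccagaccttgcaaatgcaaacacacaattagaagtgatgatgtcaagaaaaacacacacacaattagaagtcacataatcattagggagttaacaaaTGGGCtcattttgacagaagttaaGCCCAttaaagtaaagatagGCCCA
TGGGC was found on either strand 2 times in the RPT3 and RPN2B windows, 3 times in that of PBB2 and not at all in those of RPT6A and RPT6B. Over all members, 27 of 53 promoters (50.9%) held it, against 6231 of 27443 promoters of nuclear protein-coding genes (22.7%), and 21 members (39.6%) held it more than once, against 12.6% of all promoters. The longer form TGGGCC, which contains TGGGC, was in 39.6% of members and in 13.7% of all promoters. The share with TGGGC was alike across the complex, at 13 of 24 core, 7 of 15 base and 7 of 13 lid genes, and was 12 of 32 (37.5%) among other genes of the ubiquitin and proteasome system. A match is a description of the letters and not a measured binding site.

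Levels per kilobase of exon, in CPM per kb, differed widely between members. Averaged over the 27 libraries, the alpha genes PAC1 and PAF1 had 146 and 144 CPM per kb, the beta gene PBF1 128, and the ATPase genes RPT2A and RPT1A 116 and 105. At the low end stood RPN12B at 0.198, PAC2 at 0.718 and RPT1B at 1.18 CPM per kb, paralogues of abundant genes, and then RPN5B at 9.57 and RPN2B at 11.5. The members that varied most between the 9 groups, as the ratio of the highest to the lowest group mean among those above these lowest 3, were RPT6B (2.97), RPN2B (2.35), RPN8B (2.21), RPT3 (2.18), RPT1A (2.15) and PBB2 (2.06). With both genes of a subunit added, core subunits had the highest median in fae1 seeds at 7-8 days. The medians were 122 CPM per kb for core, 76.8 for base and 59.8 for lid subunits. Their ranges overlapped, with the base subunit RPT2 at 142 and the lid subunit RPN12 at 102, above the core subunit PBG at 81.9.

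At 11-12 days CL37 seeds carried more proteasome transcript than fae1 seeds. Summed over the 53 genes, levels were 5879, 5349 and 5198 CPM in CL37 replicates A, B and C, against 3924, 3922 and 3868 CPM in fae1 replicates. PDAT seeds lay between, at 4820, 3825 and 4374 CPM, with replicate B below the fae1 replicates. Every CL37 library was above every library of the other lines, and the group means were 4339 ± 498 CPM in PDAT, 5476 ± 357 in CL37 and 3905 ± 32 in fae1 seeds (SD, n = 3 each). At 7-8 days the means were 4080 ± 197, 4472 ± 46.2 and 4443 ± 451 CPM, and at 9-10 days 4165 ± 90.3, 4281 ± 140.3 and 4220 ± 174 CPM, in the order PDAT, CL37, fae1. In fae1 seeds at 7-8 days replicate A had 3946 CPM, against 4826 and 4558 CPM in B and C. The mean sums of core, base and lid were each highest in CL37 and lowest in fae1 seeds at 11-12 days. In the order PDAT, CL37, fae1, core sums were 2066 ± 327, 2474 ± 238 and 1784 ± 40.1 CPM. Base sums were 1292 ± 81.8, 1752 ± 115 and 1245 ± 47 CPM, and lid sums 842 ± 72.6, 1072 ± 66.6 and 753 ± 13.2 CPM.

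**Figure D1:**
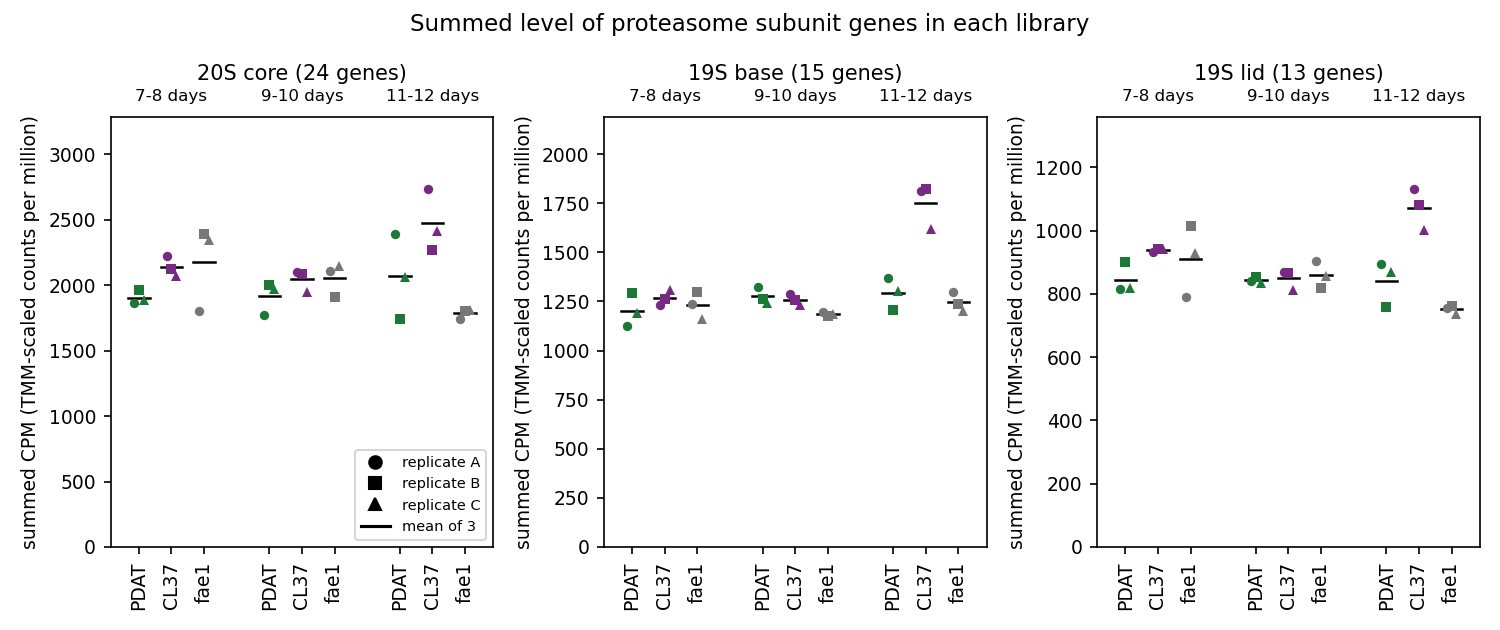
Summed CPM of the core, base and lid genes in each library, by stage after flowering, with PDAT, CL37 and fae1 side by side, points for replicates and bars for the mean of 3. At 11-12 days the core sums of CL37 seeds, 2272 to 2737 CPM, lie above those of fae1 seeds, 1739 to 1813 CPM, and those of PDAT seeds spread from 1740 to 2394 CPM.

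CL37 seeds, which express the hydroxylase gene, were compared with fae1 seeds. The hydroxylase cannot be told apart here from any other difference between these lines. At 11-12 days 33 of the 52 members tested rose in CL37 and 0 fell (edgeR quasi-likelihood test, Benjamini-Hochberg adjusted p below 0.05), which is 63.5% of members against 10.5% of all 18897 genes called higher and 5.04% called lower. All 3 CL37 libraries exceeded all 3 fae1 libraries for 45 members (86.5%), against 19.6% of all genes tested. The median log2 fold change of members was 0.49, against -0.02 over all genes, so most rises were small, and 4 members passed a 2-fold rise. The direction held under each other scaling, with 32 members higher with RLE factors and 29 with upper-quartile factors, and 23 of the 33 calls were kept whichever library was left out. Without the C libraries of both lines 26 were higher and 0 lower, with a median of 0.53. At 7-8 days no member was called, with background shares of 0.00529% higher and 0.0212% lower, and at 9-10 days again none, against 0.704% and 0.037%. At these earlier stages 0 members had an unadjusted p below 0.05, and DESeq2 also called 0.

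In the core, 15 of 24 genes rose, 8 of 13 alpha and 7 of 11 beta, with a median log2 fold change of 0.49. Of these core calls, only PAA2, PAD1, PAF1, PAG1, PBB2, PBC1 and PBE2 were kept whichever library was left out. PAF1 (AT5G42790), an alpha ring gene, had 209, 153 and 189 CPM in PDAT, 269.7, 215 and 223 CPM in CL37 and 143, 151 and 145 CPM in fae1 replicates A, B and C. CL37 and PDAT were above fae1 in every replicate, and the log2 fold change of CL37 over fae1 was 0.69 ± 0.14 (SE, adjusted p = 0.00153). PAG1, the only gene of its alpha subunit, had 158, 106 and 114 CPM in PDAT, 167, 133 and 136 in CL37 and 89.8, 100.0 and 100 in fae1 seeds, with a log2 fold change of CL37 over fae1 of 0.59 ± 0.14 (adjusted p = 0.00361). PAA2, PAB1, PAB2, PAD1, PAE1 and PAE2 were the other alpha genes that rose, by 0.53 to 0.82, and PAC1, the most abundant, was not called at 0.23.

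All 3 catalytic subunits had a gene that rose. PBB2 (AT5G40580), a gene of the trypsin-like subunit, had 68, 49.7 and 56.9 CPM in PDAT, 102, 72.9 and 70.9 CPM in CL37 and 39.9, 41.7 and 37.6 CPM in fae1 seeds. No replicate of CL37 or PDAT reached down to the fae1 range, CL37 was above PDAT in each replicate, and the log2 fold change of CL37 over fae1 was 1.04 ± 0.16 (adjusted p = 4.39e-05). Its paralogue PBB1 changed less, with 108, 85.7 and 106 CPM in PDAT, 122, 112 and 113 in CL37 and 91.7, 94.5 and 92.5 in fae1 seeds, a log2 fold change of 0.31 ± 0.1 (adjusted p = 0.0373). For the chymotrypsin-like subunit the minor gene PBE2 rose by 0.62 ± 0.14 (adjusted p = 0.00355), with 20.4, 17.6 and 19.6 CPM in PDAT, 26.9, 22.9 and 23.8 in CL37 and 17.3, 14.9 and 15.7 in fae1 seeds. The major gene PBE1 was not called at 0.24 ± 0.11 (adjusted p = 0.129). PBA1, the only gene of the caspase-like subunit, had 129, 105 and 118 CPM in PDAT, 136, 138 and 127 in CL37 and 96.4, 101 and 98.6 in fae1 seeds, a log2 fold change of 0.44 ± 0.12 (adjusted p = 0.0154). The call of PBA1 was lost without replicate A of either CL37 or fae1, and that of PBB1 was also lost in some of these repeats.

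Of the beta subunits without an active site, PBC1, PBC2 and PBD2 rose, with log2 fold changes of 0.76, 0.35 and 0.60. PBF1 and PBG1, each the only gene of its subunit, were not called, at 0.31 ± 0.12 (adjusted p = 0.0819) and 0.32 ± 0.12 (adjusted p = 0.0616). Their libraries did not overlap, since PBG1 had 153, 128 and 141 CPM in CL37 and 116, 104 and 117 CPM in fae1 seeds.

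In the base the ATPase genes split, with 6 of 11 RPT genes called higher and 1 of the 4 RPN scaffold genes. RPT6B (AT5G20000) had 40.5, 28.8 and 31.9 CPM in PDAT, 75.3, 62.6 and 57 CPM in CL37 and 24, 20.1 and 21.4 CPM in fae1 seeds. The 3 lines did not overlap, CL37 was highest and fae1 lowest, and the log2 fold change of CL37 over fae1, 1.57 ± 0.17 (adjusted p = 5.59e-07), was the largest of any member. RPT6A (AT5G19990), its neighbour on chromosome 5, had 106, 97.5 and 114 CPM in PDAT, 107, 112 and 113 in CL37 and 116, 117 and 114 in fae1 seeds, a log2 fold change of -0.07 ± 0.11 (adjusted p = 0.72). Between CL37 and fae1 this gene's libraries did not overlap, with CL37 below by a few CPM.

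RPT3 (AT5G58290), the only gene of its ATPase, had 148, 125 and 131 CPM in PDAT, 257, 235 and 186 CPM in CL37 and 105, 107 and 99.7 CPM in fae1 seeds, a log2 fold change of CL37 over fae1 of 1.12 ± 0.14 (adjusted p = 4.41e-06). Again each line kept its own range, with CL37 at the top. RPT1A, the main gene of another ATPase, had 269, 204 and 225 CPM in PDAT, 378, 359.8 and 337 in CL37 and 240.0, 212 and 214 in fae1 seeds, a log2 fold change of 0.69 ± 0.12 (adjusted p = 0.000153). RPT2A, RPT2B and RPT5A rose by 0.64, 0.50 and 0.39, and RPT1B, RPT4A, RPT4B and RPT5B were not called. RPN2B (AT1G04810), a gene of the largest scaffold subunit, had 39.9, 39.8 and 41.2 CPM in PDAT, 78, 80.4 and 61.4 CPM in CL37 and 45.6, 32.9 and 30.3 CPM in fae1 seeds. CL37 stood clear of both other lines, which overlapped, and the log2 fold change of CL37 over fae1 was 1.01 ± 0.16 (adjusted p = 9.13e-05). Its paralogue RPN2A, at 0.06 ± 0.16 (adjusted p = 0.844), and the shuttle-docking scaffold genes RPN1A and RPN1B, at 0.12 and -0.18, were not called.

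In the lid 10 of 12 tested genes rose, with a median log2 fold change of 0.55. RPN11 (AT5G23540), the deubiquitinase, had 109.6, 89.1 and 104 CPM in PDAT, 149, 144 and 128 in CL37 and 96.7, 92.2 and 83.5 in fae1 seeds, a log2 fold change of CL37 over fae1 of 0.63 ± 0.12 (adjusted p = 0.000645). RPN8B, a gene of the partner of RPN11, had 33.6, 18.1 and 28.4 CPM in PDAT, 44.2, 37.7 and 37.1 in CL37 and 20.3, 21.6 and 23.8 in fae1 seeds, a log2 fold change of 0.85 ± 0.15 (adjusted p = 0.000294). RPN9B, a scaffold gene, had 33.2, 31 and 33.2 CPM in PDAT, 47.3, 46.5 and 37.4 in CL37 and 23.6, 23.9 and 23.2 in fae1 seeds, a log2 fold change of 0.89 ± 0.13 (adjusted p = 1.62e-05). All 3 genes were above fae1 in every CL37 library, and in PDAT only replicate B of RPN8B and of RPN11 fell within or below the fae1 range. The single-gene scaffold subunits RPN6 and RPN7 rose by 0.49 ± 0.11 (adjusted p = 0.00366) and 0.57 ± 0.12 (adjusted p = 0.00171). RPN10, the ubiquitin receptor, had 161, 120.0 and 137 CPM in PDAT, 198, 172 and 166 in CL37 and 133, 122 and 114 in fae1 seeds, a log2 fold change of 0.54 ± 0.12 (adjusted p = 0.00237).

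With both paralogues of each subunit added per kilobase, all 31 subunits were higher in CL37 than in fae1 seeds at 11-12 days, by ratios of 1.02 (RPN1) to 2.17 (RPT3) around a median of 1.40. The medians were 1.39 for core, 1.33 for base and 1.42 for lid subunits. Base subunits spread most: RPT3 and RPT1 stood at 2.17 and 1.60, and RPT4 and RPN1 at 1.11 and 1.02. Promoters with and without TGGGC gave like counts, with 16 of 26 members higher and a median log2 fold change of 0.46 where the motif was present, and 17 of 26 and 0.52 where it was not.

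**Figure D2:**
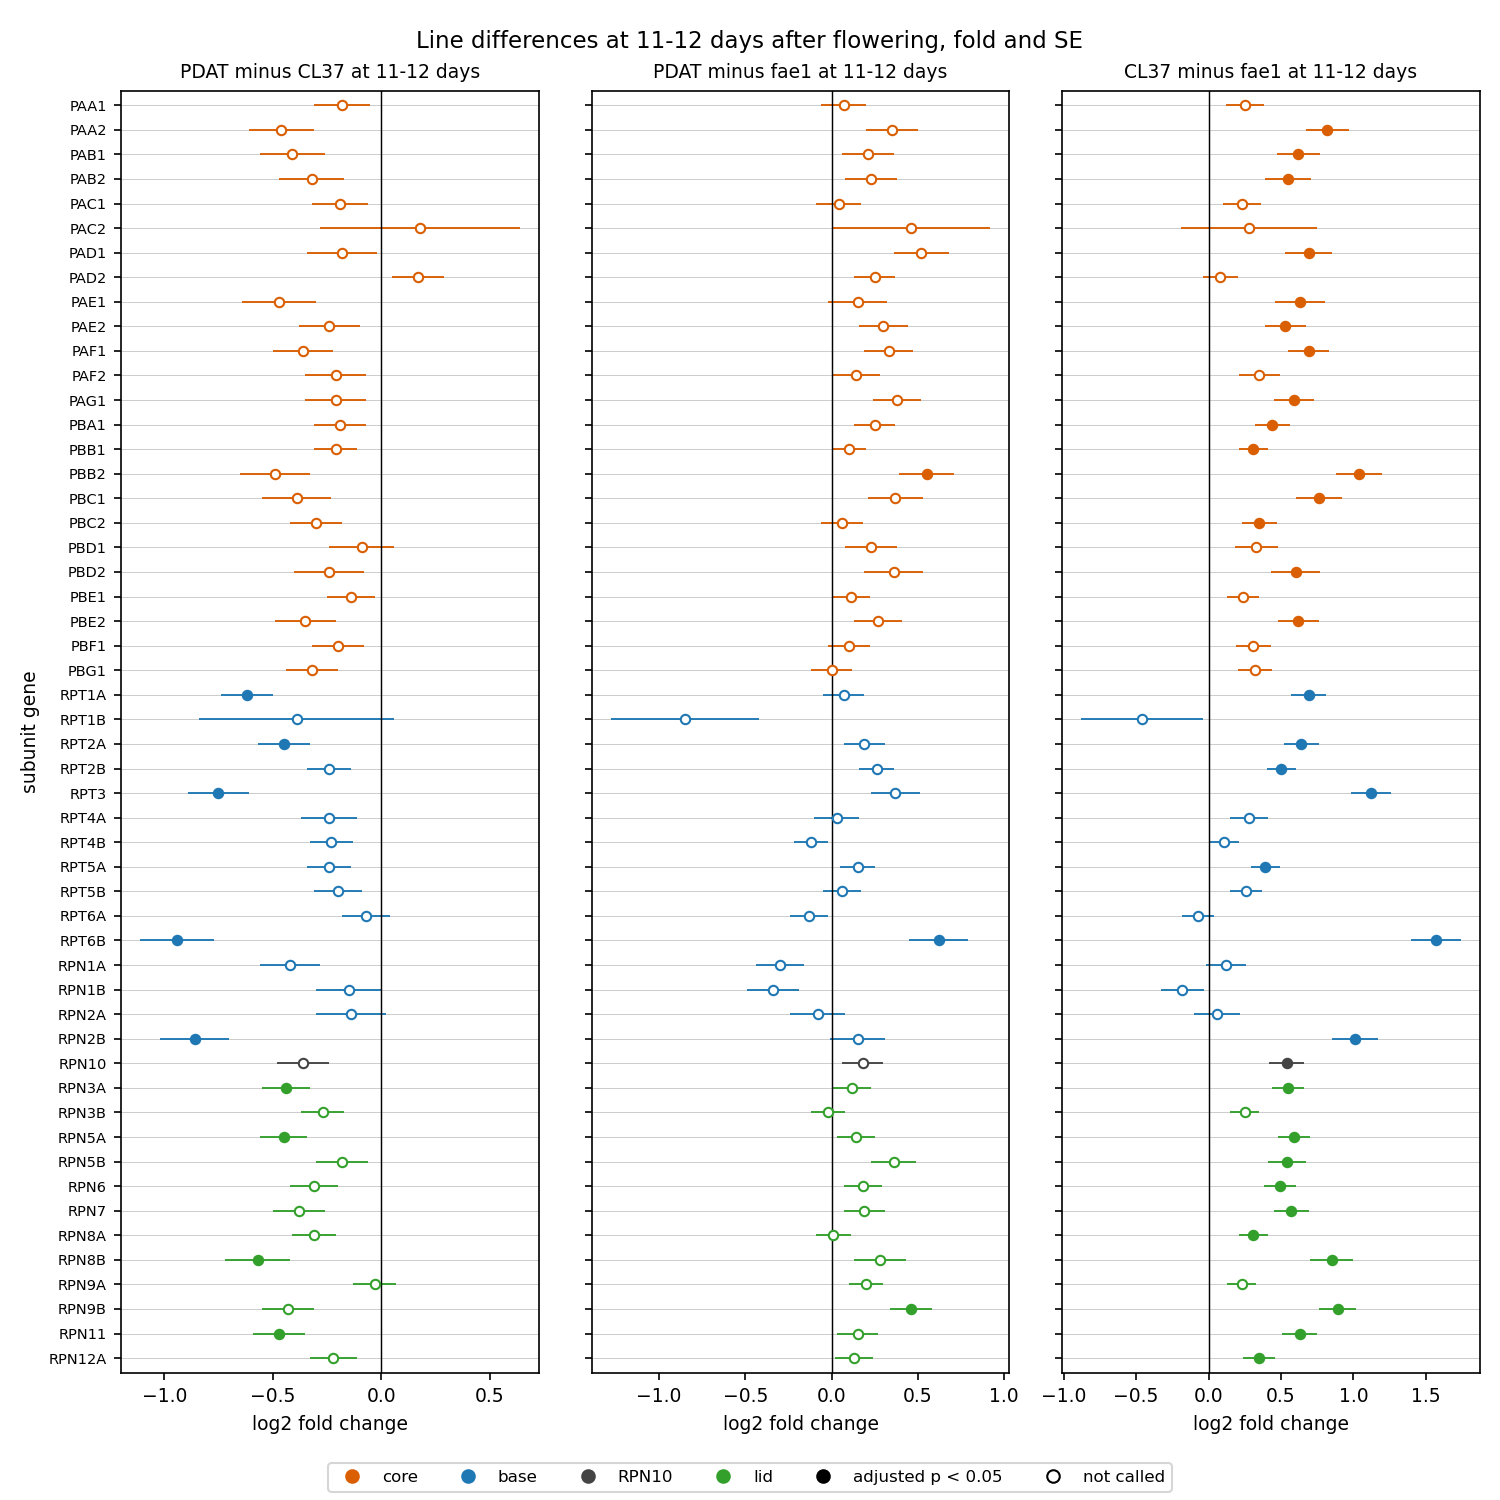
Log2 fold change at 11-12 days of each tested member, ordered by core, base and lid, for PDAT over CL37, PDAT over fae1 and CL37 over fae1, with bars of 1 SE and filled points for an adjusted p below 0.05. In CL37 over fae1, 33 points are filled and all of them lie above 0, with RPT6B highest at 1.57, and in PDAT over CL37 the 9 filled points lie below 0.

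PDAT seeds, which also express RcPDAT1a, were compared with CL37 seeds. The acyltransferase likewise cannot be told apart from any other difference between these lines. At 11-12 days 9 members were lower in PDAT and 0 higher, which is 17.3% of those tested, against 2.55% of all genes called lower and 0.0953% called higher. All 3 PDAT libraries were below all 3 CL37 libraries for 28 members (53.8%), against 9.62% of all genes, and the median log2 fold change was -0.28 against 0.02 over all genes. RPT6B was lower in PDAT by a log2 fold change of -0.94 ± 0.17 (adjusted p = 0.00175), RPN2B by -0.86 ± 0.16 (adjusted p = 0.0026), RPT3 by -0.75 ± 0.14 (adjusted p = 0.00267) and RPT1A by -0.62 ± 0.12 (adjusted p = 0.00223). These 4 base genes kept their call whichever library was left out. RPN8B (-0.57), RPN11 (-0.47), RPT2A (-0.45), RPN5A (-0.45) and RPN3A (-0.44) were called too and lost the call in some of these repeats. No core gene was called, although 30 members in all had an unadjusted p below 0.05, and all 31 subunit totals were lower in PDAT, at 0.60 (RPT3) to 0.96 of the CL37 total with a median of 0.79.

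Without the C libraries of late CL37 and fae1 the count was 8. It went down to 4 without CL37 replicate A and without PDAT replicate B or C, and to 5 without CL37 replicate B, and with upper-quartile factors it was 4. This comparison and CL37 against fae1 share the CL37 libraries, so the genes lower in the one and higher in the other are not independent observations. Of the 9, 6 had TGGGC in the promoter and 3 had not. At 7-8 days no member was called, against 0.0106% of all genes higher and 0% lower, while 7 had an unadjusted p below 0.05 and DESeq2 called 1 lower. Libraries of PDAT were then all below those of CL37 for 23 members (44.2%), against 11.4% of all genes. At 9-10 days no member was called, against 0% higher and 0.0212% lower, with 3 members at an unadjusted p below 0.05 and 0 called by DESeq2.

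Few members were called between PDAT and fae1 seeds. At 11-12 days 3 members were higher in PDAT and 0 lower (5.77%, against 4.93% of all genes higher and 1.68% lower), so the share was near the background. All 3 PDAT libraries lay above all 3 fae1 libraries for 15 members (28.8%), against 17% of all genes. The 3 were RPT6B at 0.62 ± 0.17 (adjusted p = 0.0323), PBB2 at 0.55 ± 0.16 (adjusted p = 0.0387) and RPN9B at 0.46 ± 0.12 (adjusted p = 0.0287). Each lost its call in at least 1 repeat with a library left out: the count was 0 without any 1 of fae1 replicates A, B and C or PDAT replicates A and C, and 7 without PDAT replicate B, and it was also 0 without the C libraries of late CL37 and fae1. PDAT exceeded fae1 in 28 of 31 subunit totals, by a median ratio of 1.13. At 9-10 days no member was called, against 0.0635% higher and 0.0265% lower over all genes, with 1 member at an unadjusted p below 0.05 and 0 called by DESeq2.

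At 7-8 days 1 member was higher and 1 lower in PDAT than in fae1, against 4.77% of all genes higher and 3.87% lower. The higher one was RPT1B (AT1G53780), the minor ATPase paralogue, with 14.9, 7.55 and 10.4 CPM in PDAT, 5.75, 2.22 and 4.25 in CL37 and 5.15, 2.48 and 1.44 in fae1 seeds. Every PDAT replicate was above those of both other lines, and the log2 fold change over fae1 was 1.86 ± 0.41 (adjusted p = 0.0101), or 1.56 (adjusted p = 0.0542) without PDAT replicate A. RPT1B had only 14 to 280 counts per library, which limits the precision of all its values. The summed level of 3 endosperm genes, 32.8 to 48.7 CPM in PDAT, 20.4 to 32.7 in CL37 and 6.18 to 14.2 in fae1 seeds, and the share of alignments that were not unique, 16.6% to 19.4% in PDAT, 10.4% to 15.8% in CL37 and 6.28% to 11.4% in fae1, differed in the same order, and their part in this result was not tested. The lower one was RPT6A, with 67.2, 72.6 and 80.6 CPM in PDAT, 87.8, 88.6 and 103 in CL37 and 110.1, 91.1 and 91.1 in fae1 seeds, a log2 fold change over fae1 of -0.41 ± 0.11 (adjusted p = 0.0262). That call was lost without fae1 replicate A or PDAT replicate A or B, and without fae1 replicate A 11 members were called in this comparison.

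Changes between 7-8 and 11-12 days were first read within each line. Markers of other seed tissues changed over the same days in each of them. The 3 seed coat genes summed to 125 to 224 CPM at 11-12 days against 416 to 513 CPM at 7-8 days in PDAT seeds, 95.1 to 134 against 359 to 571 CPM in CL37 seeds and 108 to 166 against 249 to 495 CPM in fae1 seeds. The 3 endosperm genes summed to 1.73 to 6.23 CPM at 11-12 days against 32.8 to 48.7 CPM at 7-8 days in PDAT seeds, 0.549 to 1.76 against 20.4 to 32.7 CPM in CL37 seeds and 1.05 to 1.66 against 6.18 to 14.2 CPM in fae1 seeds, with FIS2 at 0 in all late CL37 and fae1 libraries. Both lists were thus lower in every late library of each line, and their part in the changes with age was not tested.

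In fae1 seeds 23 members fell and 2 rose, against 26.5% of all genes lower and 24% higher, so the share lower was above that of all genes, and 17 members (32.7%) had all late libraries below all early ones, against 26.3%. The members that fell were 14 of the core, 4 of the base and 5 of the lid, and the 2 that rose were base genes. The median log2 fold change was -0.31 in the core and -0.24 in the lid. In the base it was 0.15, with 8 of 15 genes above 0, so the fall was mainly one of core and lid genes. PBC1, a beta ring gene, had 37.7, 39.2 and 40.5 CPM at 11-12 days against 46, 76.5 and 72.7 CPM at 7-8 days in fae1 seeds, a log2 fold change of -0.73 ± 0.16 (adjusted p = 0.000986). RPT6B had 24, 20.1 and 21.4 CPM at 11-12 days against 26.8, 46.2 and 35.7 CPM at 7-8 days, a log2 fold change of -0.73 ± 0.17 (adjusted p = 0.00184). In both genes the early replicate A was nearest the late libraries, as it was in the storage genes. PBD1 and PBD2, paralogues of 1 beta subunit, each fell by a log2 fold change of -0.65 (adjusted p = 0.00152 and 0.00309). RPT1A and RPN1B rose, at 0.41 ± 0.12 (adjusted p = 0.00624) and 0.39 ± 0.15 (adjusted p = 0.0383).

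The fae1 count of 25 depended on the libraries. It was 35 without replicate A of 7-8 days, 8 without B and 13 without C of that stage, and 14 and 16 without replicates A and C of 11-12 days; 8 members (PAF2, PBB2, PBC1, PBD1, PBD2, RPT1A, RPT6B and RPN9B) were called in every such repeat. Without the C libraries of late CL37 and fae1 the count was 15, and a fit of these 6 libraries alone called 0. By steps, no member or other gene was called between 7-8 and 9-10 days in fae1 (0% of genes either way, with 0 members at an unadjusted p below 0.05), and DESeq2 likewise called 0 members. This count rested on replicate A of 7-8 days, since 5 members were lower and 0 higher without it, and 9 lower and 0 higher without both A libraries of 7-8 and 9-10 days. Between 9-10 and 11-12 days 6 members fell (11.5%) and 1 rose (1.92%), both below the background of 19.6% and 13.4% of all genes. The largest falls were RPT6B (-0.57), PBC1 (-0.52), PBD2 (-0.50) and PAD1 (-0.48), the rise was RPT1A (0.33), and none kept its call through every omission of a library, with 0 called without replicate A of 9-10 days.

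In CL37 seeds 24 members rose and 0 fell between 7-8 and 11-12 days, against 29.5% of all genes higher and 28.6% lower, but with upper-quartile factors, which moved the median of all genes by -0.15 in this comparison, 9 were higher and 4 lower. Those that rose were 11 core, 7 base and 5 lid genes and RPN10, and 29 members (55.8%) had all late libraries above all early ones, against 32.1% of genes. RPN2B had 78, 80.4 and 61.4 CPM at 11-12 days against 34.7, 32.7 and 34.8 CPM at 7-8 days, a log2 fold change of 1.10 ± 0.16 (adjusted p = 6.5e-06). RPT1A had 378, 359.8 and 337 CPM at 11-12 days against 153, 175 and 172 CPM at 7-8 days, also 1.10 ± 0.12 (adjusted p = 9.25e-08). RPN8B had 44.2, 37.7 and 37.1 CPM at 11-12 days against 19.3, 19.2 and 17.6 CPM at 7-8 days, a log2 fold change of 1.08 ± 0.15 (adjusted p = 3.49e-06). Every late library of these 3 genes was above every early one. PAC2 had the largest fold, 1.29 ± 0.51 (adjusted p = 0.0353), on 2 to 14 counts per library in these groups. Without the C libraries of late CL37 and fae1 19 members were called.

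By steps, 22 members rose and 0 fell in CL37 between 9-10 and 11-12 days (against 16.1% and 15% of genes), led by RPN2B (0.97), RPT6B (0.96), RPT1A (0.89) and RPT3 (0.84). Between 7-8 and 9-10 days 1 fell and 0 rose (both below the background of 12.6% and 13.2%), and the fall was PBC1 at -0.48 ± 0.16 (adjusted p = 0.0321). Without replicate A of 11-12 days the counts were 13 over the whole span and 12 in the late step, without replicate B of 7-8 days the first was 15, and 11 members were called over the whole span in every such repeat. PBC1 lost its call when any replicate of these stages other than replicate C of 7-8 days was left out.

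In PDAT seeds 6 members rose and 3 fell between 7-8 and 11-12 days, both below the background of 27.2% and 26.7% of genes, and with upper-quartile factors 5 rose and 6 fell. The ATPase gene RPT6A had 106, 97.5 and 114 CPM at 11-12 days against 67.2, 72.6 and 80.6 CPM at 7-8 days, a log2 fold change of 0.53 ± 0.11 (adjusted p = 0.000345), while its paralogue RPT6B had 40.5, 28.8 and 31.9 CPM against 33.8, 38.1 and 36 CPM and was not called. RPN8B (0.57), PAC1 (0.48), RPT1A (0.47), RPN5B (0.43) and PBG1 (0.30) rose as well. RPT1B fell to 1.82, 2.93 and 1.73 CPM at 11-12 days, against 14.9, 7.55 and 10.4 CPM at 7-8 days, a log2 fold change of -2.35 ± 0.41 (adjusted p = 6.64e-05). RPT4A (-0.33) and RPN3B (-0.29) fell too, and these and PBG1 lost their call in some repeats with a library left out.

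By steps, 3 members rose in PDAT between 7-8 and 9-10 days, RPT6A (0.52), PAC1 (0.35) and RPT2B (0.30), and 3 fell, RPT1B (-2.24), PBC1 (-0.46) and RPT3 (-0.37), both below the background of 16.2% and 16.3% of genes. With upper-quartile factors this split was 1 and 3, and RPT1B and RPT6A alone kept their calls whichever library was left out. Between 9-10 and 11-12 days only RPT1A rose (0.33 ± 0.12, adjusted p = 0.0447) and 0 fell, both below the background of 12.2% and 11.6% of genes. With upper-quartile factors the single call was instead a fall.

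**Figure D3:**
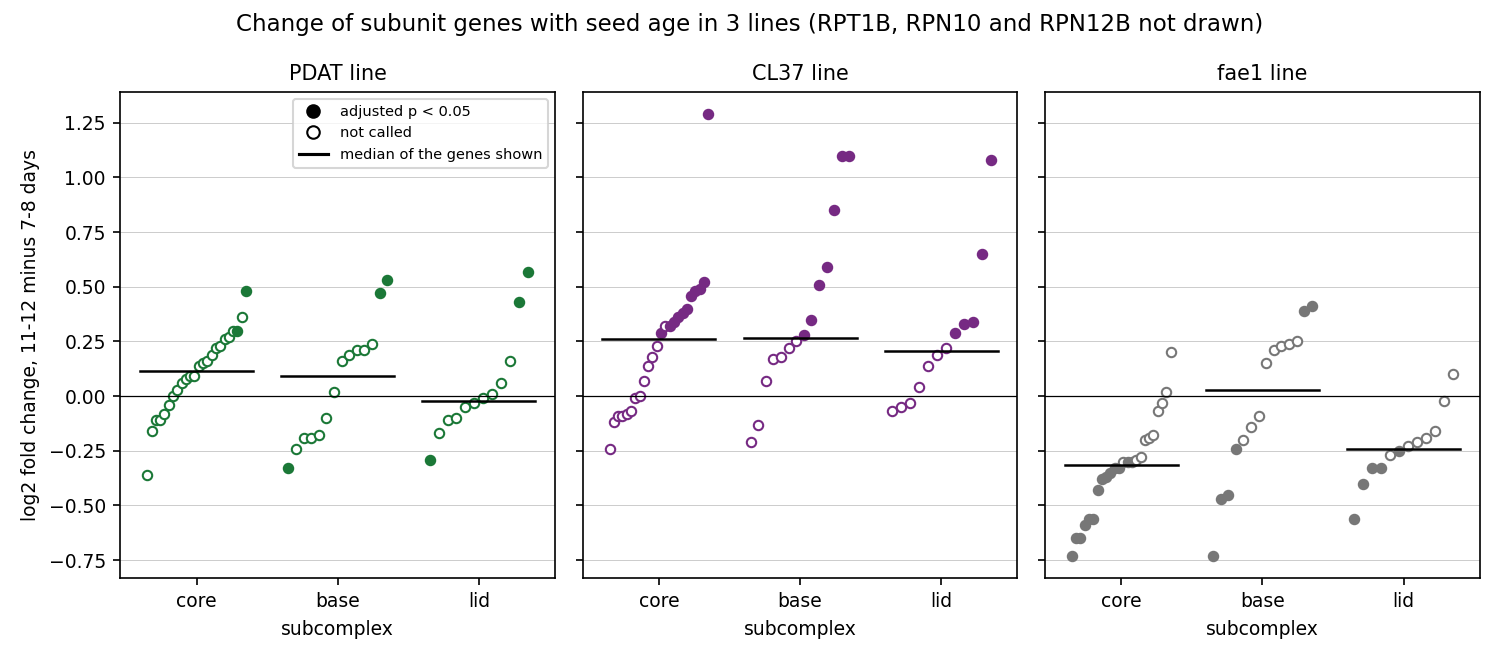
Log2 fold change of 11-12 over 7-8 days for each member in PDAT, CL37 and fae1 seeds, grouped by core, base and lid, with filled points for an adjusted p below 0.05. RPT1B, RPN10 and RPN12B are not drawn. CL37 points lie mostly above 0 (median over members 0.24), fae1 points mostly below (median -0.25) and PDAT points about 0 (median 0.07). In fae1 seeds the medians, RPT1B included, are -0.31 for core, 0.15 for base and -0.24 for lid genes.

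Whether these changes differed between lines was tested as an interaction. The change with age in CL37 minus that in fae1 was positive and called for 14 members and negative for 0 (26.9%, against 5.51% of genes higher and 1.04% lower), with a median over members of 0.49. RPT6B differed most, by a log2 value of 1.58 ± 0.24 (adjusted p = 0.000205), followed by RPT3 at 1.05 ± 0.2 (adjusted p = 0.0019), PBB2 at 1.05 ± 0.22 (adjusted p = 0.00479) and RPN8B at 0.97 ± 0.22 (adjusted p = 0.00667). Those 4, with RPT1A, RPN2B, RPN5A and RPN9B, kept their calls whichever library was left out. The count was 34 without replicate A of fae1 at 7-8 days, 8 without replicate A of either line at 11-12 days, and 9 without replicate B of either line at 7-8 days or of fae1 at 11-12 days.

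PDAT minus CL37 gave no called member (0.0265% of genes higher, 0.677% lower), with 9 at an unadjusted p below 0.05 and 4 called lower by DESeq2. PDAT minus fae1 gave 1 higher and 1 lower (4.73% and 2.91% of genes), PAF1 at 0.70 ± 0.2 (adjusted p = 0.038) and RPT1B at -2.70 ± 0.59 (adjusted p = 0.0112). Without replicate A of fae1 at 7-8 days 28 members were called there, and without replicate B of PDAT at 11-12 days 14. PAF1 lost its call without most single libraries, while RPT1B kept it in all.

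Of 21 pairs with both genes tested, both genes were higher in CL37 than in fae1 at 11-12 days in 7, 1 gene in 11 and neither in 3. These counts stand beside 63.5% of all members called higher, and a departure from that share was not tested. A call in only 1 gene of a pair is no test of a difference, since RPT5A was called at 0.39 and RPT5B not at 0.26. The share of each gene in its pair was taken from CPM per kb. RPT6B made up 34.1%, 28.6% and 27.5% of the RPT6 pair in PDAT, 48.8%, 43.1% and 40.5% in CL37 and 21.8%, 18.9% and 20.2% in fae1 replicates at 11-12 days. The lines did not overlap then, whereas at 7-8 days the mean shares were 40%, 34.5% and 33.4% in PDAT, CL37 and fae1, with fae1 replicates from 24.8% to 40.7%. RPN2B made up 34.1%, 27.2% and 29.4% of its pair in PDAT, 45.3%, 37.9% and 41.7% in CL37 and 30.2%, 25.4% and 23.7% in fae1 seeds at 11-12 days. PDAT and fae1 overlapped and CL37 lay above both.

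RPN8B made up 38.9%, 26.3% and 34.7% of its pair in PDAT, 39.9%, 36.4% and 37.5% in CL37 and 27.1%, 28.8% and 32.9% in fae1 seeds at 11-12 days. CL37 was above fae1 in every replicate, and PDAT spanned both. PBC2 averaged 43% of its pair in PDAT, 43.9% in CL37 and 48.6% in fae1 seeds at 7-8 days, where fae1 replicate A had 53% and B and C had 46.1% and 46.7%. At 9-10 days it averaged 51.2% in PDAT, 54.3% in CL37 and 50.3% in fae1 seeds, and at 11-12 days 52%, 50.3% and 57.3% in the same order of lines. The mean of fae1 was thus the highest at the first and last stage. At 9-10 days it was the lowest, with fae1 replicate A at 45.2% and B and C at 51.8% and 53.9%. That lowest place rested on replicate A, since B and C were both above the PDAT mean. These 4 pairs had the widest spread of shares over the 9 groups. The coding sequences of RPT6A and RPT6B were identical at 94.4% of bases with a shared run of 104 bases, more than in any other pair (80.3% to 89.6%, runs of at most 66 bases), so the counting may have split some reads between these neighbours or left them out. Their chromosome positions on TAIR10.1 are chr5:6751798-6755315 and chr5:6756633-6759800, both on the plus strand.

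**Figure D4:**
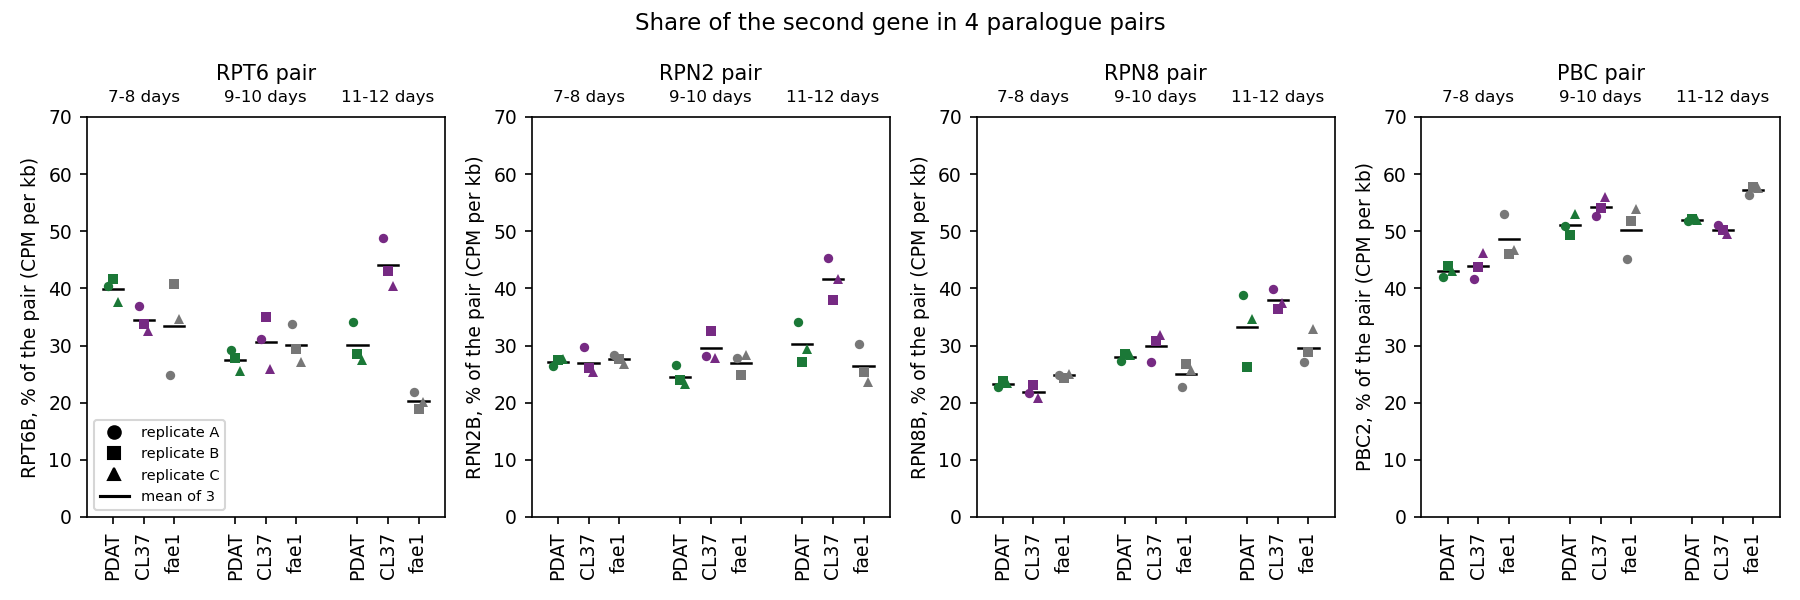
Share of RPT6B, RPN2B, RPN8B and PBC2 in the summed CPM per kb of their pair, in percent, for each replicate of PDAT, CL37 and fae1 seeds at the 3 stages. At 11-12 days the RPT6B share is 40.5% to 48.8% in CL37 seeds, above 27.5% to 34.1% in PDAT and 18.9% to 21.8% in fae1 seeds.

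Other genes of the ubiquitin and proteasome system were read from a list of 32 genes (31 tested). In CL37 against fae1 seeds at 11-12 days 9 rose and 1 fell (29% and 3.23% of the list, against 10.5% and 5.04% of all genes), and 6 of these calls (UBQ3, UBQ11, UBQ14, CDC48A, CDC48B and NAC78) were kept whichever library was left out. The polyubiquitin gene UBQ3 (AT5G03240) had 825, 772 and 669.6 CPM in PDAT, 1277, 1108 and 1063 CPM in CL37 and 461, 408 and 474 CPM in fae1 seeds, a log2 fold change of CL37 over fae1 of 1.36 ± 0.16 (adjusted p = 1.02e-06). CL37 was highest and fae1 lowest in each replicate, and UBQ14, UBQ11 and UBQ10 rose by 0.82, 0.77 and 0.61, although polyubiquitin genes share near-identical repeats that make read assignment uncertain. AT3G53230, named CDC48B here, encodes a CDC48-family ATPase that pulls ubiquitinated proteins from membranes and complexes. It had 179, 177 and 185 CPM in PDAT, 397, 405 and 243 in CL37 and 109, 67.9 and 85.7 in fae1 seeds, a log2 fold change of 1.99 ± 0.44 (adjusted p = 0.00282). Its relative CDC48A rose by 0.64 ± 0.14 (adjusted p = 0.00178).

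Of the transcription factors of subunit genes, NAC78 (AT5G04410) had 71.1, 74.8 and 75.7 CPM in PDAT, 116, 112 and 81.3 in CL37 and 70.6, 60.1 and 64.1 in fae1 seeds, a log2 fold change of CL37 over fae1 of 0.67 ± 0.14 (adjusted p = 0.00122). NAC53 (AT3G10500) was far lower, at 5.15, 6.6 and 4.57 CPM in PDAT, 6.46, 6.59 and 6.74 in CL37 and 2.59, 4.34 and 4.21 in fae1 seeds. Its log2 fold change was 0.82 ± 0.24 (adjusted p = 0.0205), a call lost without fae1 replicate A or CL37 replicate A or C. Both factors were above fae1 in every CL37 library. DSS1I, a small lid-bound protein, rose by 0.78 ± 0.25 (adjusted p = 0.0391), the core maturation factor UMP1A was not called at 0.59 ± 0.21 (adjusted p = 0.0629), and UBA2, a ubiquitin activating enzyme, fell at -0.67 ± 0.19 (adjusted p = 0.0164).

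PDAT against CL37 seeds at 11-12 days had UBQ14 lower, at -0.74 ± 0.13 (adjusted p = 0.00144), and UBQ3 lower, at -0.60 ± 0.16 (adjusted p = 0.033), and no gene of the list higher. The UBQ3 call was lost without replicate A or B of CL37 or replicate B or C of PDAT. NAC78 was not called there, at -0.48 ± 0.14 (adjusted p = 0.0623). PDAT against fae1 seeds had UBQ3 higher, at 0.75 ± 0.16 (adjusted p = 0.00391), and UBA2 lower, at -0.67 ± 0.19 (adjusted p = 0.0332). The UBA2 call was lost without replicate A or C of either line. Between 7-8 and 11-12 days 8 genes of the list rose and 3 fell in PDAT (25.8% and 9.68%, against 27.2% and 26.7% of all genes), 14 rose and 1 fell in CL37 (45.2% and 3.23%, against 29.5% and 28.6%), and 6 rose and 3 fell in fae1 seeds (19.4% and 9.68%, against 24% and 26.5%). The share that rose was thus above that of all genes in CL37 and below it in PDAT and fae1. The interaction of age with CL37 against fae1 was positive for UBQ3, CDC48B, UBQ14 and DSS1I and negative for none, and UBQ3 and CDC48B kept these calls whichever library was left out.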

How the data were processed

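RNA was sequenced from seeds of 9 groups with 3 biological replicates each, with the Illumina TruSeq mRNA v2 kit per the labels. The authors deposited read counts per gene for 27 libraries and a table of FPKM values with 1 pooled value per group, used for the TAIR10 gene positions and for the check of the late libraries. Tools listed in the submitters' processing notes, with neither roles nor settings, are HTSeq 0.5.4p3, TopHat2 2.0.3, Cufflinks 2.0.1, Trimmomatic 0.22 and bcl2fastq 1.8.2, and the use of strand in counting is not given in the sources used here. In the RefSeq annotation 19 members overlap another gene, PAF2 by 1652 bases and RPN7, PBD1, RPT1A, RPN5A, PBD2, PBF1 and PBB2 among the others, so their counts may hold reads of that gene. The 5 summary lines (4.68% to 20.5% of each file) were left out of library sizes.

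Counts were fitted in R 4.3.3 with edgeR 4.0.16 (TMM factors, expression filter over the 9 groups, robust quasi-likelihood fit, common biological coefficient of variation 0.209), and p-values were adjusted by Benjamini-Hochberg over all 18897 genes tested, with called genes below 0.05. The 21 contrasts, each tested on both sides, were 9 of lines within a stage, 9 of stages within a line and 3 interactions of line and age. The standard error (SE) is the log2 fold change divided by the root of F. Levels are CPM, and per kb they are divided by exon length. Pairs of replicates differed by 2.75 to 236 times the counting variance, averaged over genes and scaled by total counts without TMM factors. The p-values do not measure that figure. Each rests on a spread estimated per gene from all 9 groups, with help from the other genes. A library can therefore change calls in comparisons that do not use it. The test was also run on counts simulated from its own model, with means equal between groups apart from planted changes. That run held no outlying library, so it cannot show how the test behaves with one. Alternatives were DESeq2 1.42.0, RLE and upper-quartile factors, no filter, a replicate block, a covariate, subsets of libraries and leaving out each library.

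The members, the gene lists and the rule for naming genes were chosen with earlier results of these data known, so the lists get no test of their own. The rule names up to 4 rises and 4 falls per contrast, single-gene and catalytic subunits, the 4 pairs of most variable share, and up to 6 other pathway genes with NAC53, NAC78 and UMP1A; further members were named after their values were seen. Promoters and coding sequences come from RefSeq on TAIR10.1, where 32809 of 32810 genes shared with the authors' table overlapped their deposited position (pandas 2.3.3, Biopython 1.88, matplotlib 3.10.9).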

Additional observations from a re-analysis of the deposited data

Results flagged for a closer look

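The change with age in CL37 minus that in fae1 differed from 0 (edgeR quasi-likelihood test of the interaction, Benjamini-Hochberg adjusted p below 0.05) for 14 members. On the log2 scale the values were 1.58 for RPT6B, 1.05 for RPT3, 1.05 for PBB2, 0.97 for RPN8B, 0.95 for RPN2B, 0.91 for RPN9B, 0.80 for PAA2, 0.77 for PAF1, 0.69 for RPT1A, 0.69 for PAE2, 0.67 for RPN5B, 0.66 for RPN5A, 0.60 for RPT2A and 0.56 for RPN11. The change with age in PDAT minus that in fae1 differed for 2 members, with values of -2.70 for RPT1B and 0.70 for PAF1.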

How the results depend on the processing

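No named gene that was called changed direction under the alternatives run. Of 836 values of named genes under alternatives, 670 kept their side of the threshold and 166 lost their call, and with 1 library left out 433 of 606 kept it and 173 lost it. Counts of called members that moved by over 1.5 times are given here with the reported count in brackets. For PDAT against CL37, DESeq2 called 1 at 7-8 days (0), and at 11-12 days (9) the count was 4 with upper-quartile factors, without the filter and with the non-unique share as covariate, 14 without both early fae1 A libraries and with DESeq2, and 2 with only the groups compared. For PDAT against fae1 at 7-8 days (2) it was 1 without the filter, 0 with the covariate and with only the groups compared, and 12 without both early fae1 A libraries, and at 11-12 days (3) it was 1 without the filter, 0 with the covariate and without the C libraries of late fae1 and CL37, and 8 without the early fae1 A libraries. For 11-12 against 7-8 days it was 15 without the filter and without those C libraries, 14 with the covariate and 0 with only the groups compared in fae1 (25), 13 with upper-quartile factors and 10 with the covariate or only the groups compared in CL37 (24), and 2 with the covariate in PDAT (9). For 9-10 against 7-8 days it was 9 without the early fae1 A libraries in fae1 (0), in CL37 (1) 2 with RLE, upper-quartile factors or DESeq2, 0 with the covariate, and 3 without the early fae1 A libraries or with only the groups compared, and in PDAT (6) 3 without the filter and 0 with the covariate. For 11-12 against 9-10 days it was 14 with upper-quartile factors, 0 with the covariate and 2 without the C libraries in fae1 (7), and in PDAT (1) 2 with RLE or without the early fae1 A libraries, 0 without the filter, without the C libraries or with only the groups compared, and 3 with DESeq2. For the interactions it was 34 without the early fae1 A libraries, 3 with only the groups compared and 22 with DESeq2 in CL37 minus fae1 (14). In PDAT minus CL37 (0) it was 1 with the covariate, 4 without the early fae1 A libraries or with DESeq2, and 2 without the C libraries or with only the groups compared. In PDAT minus fae1 (2) it was 1 without the filter, with the covariate or without the C libraries, 28 without the early fae1 A libraries, 0 with only the groups compared and 4 with DESeq2. The causes were not tested, though fits of fewer libraries have fewer degrees of freedom.

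Leaving out 1 library at a time gave 23 to 33 called members for CL37 against fae1 at 11-12 days, 4 to 12 for PDAT against CL37 and 0 to 7 for PDAT against fae1 at 11-12 days, and 0 to 11 for PDAT against fae1 at 7-8 days. For 11-12 against 7-8 days it gave 8 to 35 in fae1, 13 to 22 in CL37 and 6 to 12 in PDAT. For 9-10 against 7-8 days it gave 0 to 5, 0 to 1 and 2 to 4, and for 11-12 against 9-10 days 0 to 8, 12 to 22 and 0 to 3, in that order of lines. The interactions gave 8 to 34 for CL37 minus fae1, 0 to 2 for PDAT minus CL37 and 1 to 28 for PDAT minus fae1. The main comparison of CL37 with fae1 at 11-12 days had 26 to 36 calls under the other alternatives. With the replicate letter as a block it had 33 calls, 32 of them shared, and no count moved by over 1.5 times. Deviations of same-letter libraries of different groups correlated at -0.543 to 0.537 (median 0.0328, over 0.1 in 34 of 108 pairs). Those of other-letter libraries correlated at -0.453 to 0.567 (median -0.0261, over 0.1 in 50 of 216 pairs). Same letters thus agreed slightly more, within overlapping ranges, and the letters were not taken as pairs. From raw counts RPT6A made up 63.1% of its pair in CL37 seeds at 11-12 days, against 55.9% per kilobase, and PBC1 47.5% against 49.7%. PAC2 (2 to 19 counts per library), RPN12B (0 to 8) and RPT1B (14 to 280) are limited by depth.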
